A study of Mus musculus with 13 samples.

Results

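The 7 arrays of mouse prostate progenitor/stem cells kept in 1,25-dihydroxyvitamin D3 (written 1,25(OH)2D3 in the labels and 1,25D below) were compared between 48 h and 6 h of exposure. They are 7 of the 13 arrays of the series and were chosen by sample title: 3 arrays of 1,25D at 6 h and 4 arrays of 1,25D at 48 h. The other 6 arrays, 3 of vehicle at 6 h and 3 of vehicle at 48 h, did not enter the fit of this comparison. They helped to choose the probe set each gene is read from and give the change over the same interval without hormone. All 13 samples came from cultured prostatic progenitor/stem cells of 10 wk old wild-type mice (genotype B1/6; 127/SVEV in the labels) at passage 22. Cells were seeded at 100000 per 10 cm dish and reached 70% confluency before 100 nM 1,25D, or 0.1% ethanol as vehicle, was added. The 48 h cultures received fresh hormone or vehicle every 24 h. All 7 arrays thus carry the hormone, and longer exposure, time in the dish and renewed medium cannot be told apart within them. The labels do not say whether the replicates were separate cultures, so the p-values measure only the spread between these arrays.

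1,25D is the hormonal form of vitamin D. It binds the vitamin D receptor, which pairs with a retinoid X receptor on DNA and alters transcription of nearby genes, and among its strongest targets is Cyp24a1, the enzyme that breaks the hormone down. In prostate epithelium, which holds basal and luminal cells and a few neuroendocrine cells, the hormone is known for slowing division and altering differentiation. Basal-type epithelial cells in culture can also switch on genes of stratified epithelia such as skin, whose outer cells build a cornified envelope, a sheath of cross-linked small proline-rich proteins, keratins and other proteins under the cell membrane.

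Levels of markers of basal, luminal and other cell types were read. Progenitor and stem cell markers were not part of this set, and their changes are given below. Signals are log2 values as deposited, and a percentile ranks a gene's mean among all 45037 probe sets (the sets of short oligonucleotides that each report 1 transcript). Probe sets differ in their own brightness, so a percentile is a rough guide to a level. The basal keratin genes Krt5 and Krt14 lay at the 99.0 and 99.9 percentiles at 6 h and at the 99.2 and 99.9 percentiles at 48 h. The luminal keratin genes Krt8 and Krt18 lay at the 99.7 and 99.6 percentiles at 6 h, and the epithelial adhesion genes Cdh1 and Epcam at 98.4 and 98.7. Among the prostate and secretory genes Pbsn lay at the 6.13, Spink1 at the 20.1, Hoxb13 at the 25.9 and Msmb at the 27.1 percentile at 6 h, whereas Acpp, the gene of prostatic acid phosphatase, lay at the 91.4 percentile at 6 h and the 95.1 at 48 h. Acpp was read from the brightest of its 3 probe sets. Between the times its log2 signal rose by 0.76 there and by 0.09 in the mean of all its probe sets. High basal and luminal keratin signals thus stood together, and the secretory genes were unequal. Markers of other cell types were unequal too. Of the stromal genes Col1a1, Col3a1 and Myh11 lay at the 24.6, 15.4 and 16.7 percentiles at 6 h, but Des lay at 59.8, Acta2 at 62.9 and Vim, which cultured epithelial cells can also express, at 96.8. Of the immune genes Ptprc and Adgre1 lay at 12.7 and 28.8, Csf1r at 64.8 and Cd3e at 66.4, and Cd68 went from 49.2 at 6 h to 76.9 at 48 h. The 5 endothelial genes ran from 19.9 (Tek) to 50.5 (Kdr) at 6 h. Of the neuroendocrine and nerve genes Chga and Syp lay at 29.8 and 50.9 at 6 h and Ncam1 at 83.2.

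1 treated array stood apart. A principal component with 57.6% of the variance separated 6 h from 48 h among the 7 arrays, and the next, with 24.9%, set 1,25D 48 h replicate 4 (63.4) against the other 6 (-46.2 to 17.46). That array had the narrowest signal range, an interquartile range of 2.95 against 3.27 to 3.46, and the lowest array weight (0.176). It was kept. Leaving it out lost none of the calls over time of the genes described here, and among their called differences from vehicle it lost those of Ereg, Lif, S100a8 and Stmn1. Median absolute differences between arrays of 1 treated group ran from 0.0978 to 0.2954. In 8.9% of all probe sets, but in 0.7% of the genes called over time, at least 2 treated arrays of a group held identical values, which can make the spread of dim probe sets too small.

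Between 6 h and 48 h under 1,25D, 4162 of 18193 genes (22.9%) differed at a Benjamini-Hochberg adjusted p under 0.05 in limma, the threshold for every call below. 1938 genes (10.7%) were higher at 48 h and 2224 (12.2%) were lower. A change of at least 2-fold was reached by 659 of the higher (3.62% of all genes) and 543 of the lower genes (2.98%). The 6 h and 48 h arrays did not overlap in 4138 of the 4162 called genes, against 6157 (33.8%) of all genes. Without 1,25D 6 h replicate 1 the lower genes numbered 1478 and the higher genes 1398. The median change over all genes was 0.012 on the log2 scale. Below, rose and fell refer to called genes, a change is the 48 h mean minus the 6 h mean in log2 units, and a call that was lost when 1 of the 7 arrays was left out is marked as such. The same fits were used to count each gene list with 1 array left out. Arrays that move a count of 4 or more by over 1.5 times are named; smaller counts move that far with 1 or 2 genes.

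The largest rises and falls were taken among called genes whose 6 h and 48 h arrays did not overlap. Their lack of overlap thus follows from the choice. Of the 15 largest rises 6 were in genes of the cornified envelope list and 1, Egln3, in a gene of the glycolysis and hypoxia list. Sprr2d, a small proline-rich envelope protein gene, had log2 signals of 5.85, 5.96 and 6.07 at 6 h and 13.03, 12.91, 13.04 and 12.90 at 48 h. Every 48 h array was more than 6 log2 units above every 6 h array, and the change was 7.01 (SE 0.09, adjusted p = 1.69e-09), a 129-fold rise. Krt6b, a keratin of activated and wounded epithelium, had signals of 8.91, 9.08 and 9.21 at 6 h and 13.89, 14.02, 13.86 and 13.84 at 48 h and rose by 4.84 (SE 0.08). Its 6 h arrays lay close together and far below all 4 arrays at 48 h. The collagenase gene Mmp13 had signals of 4.72, 4.71 and 4.90 at 6 h and 9.88, 9.73, 9.61 and 9.74 at 48 h and rose by 4.96 (SE 0.13). Il33, which encodes an alarm cytokine of epithelial cells, had 6.12, 6.57 and 6.60 at 6 h and 11.34, 11.32, 11.31 and 11.19 at 48 h and rose by 4.86 (SE 0.13). Tslp, another epithelial cytokine gene, had 4.90, 4.85 and 4.72 at 6 h and 9.40, 9.39, 9.52 and 9.63 at 48 h and rose by 4.66 (SE 0.13). In each of these genes the 2 times were separated by a gap many times wider than the spread within either group. Egln3, a prolyl hydroxylase gene of the oxygen-sensing pathway, rose by 4.64, from 5.67 to 5.77 across the 6 h arrays to 10.14 to 10.50 across the 48 h arrays. The other 9 of the 15 largest rises were in 3 more envelope genes and in Rptn, Cdsn, Stfa2l1, Cyp2f2, Sftpd and Mgp. Rptn, an S100-fused envelope precursor gene, rose by 5.42, and Cdsn, which encodes the corneodesmosome protein corneodesmosin, by 4.21. Stfa2l1, of the stefin family of cysteine protease inhibitors, rose by 4.16. The cytochrome P450 gene Cyp2f2 rose by 5.08, the lung-type collectin gene Sftpd by 4.90, and Mgp, an inhibitor of calcification, by 4.22.

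The largest falls were smaller than the largest rises, and 10 of the 15 were in genes of no list. Ccnb1ip1, a cyclin B1-interacting ubiquitin ligase gene, had signals of 8.26, 8.33 and 8.42 at 6 h and 5.12, 5.10, 4.69 and 4.13 at 48 h and fell by 3.58 (SE 0.24, adjusted p = 1.74e-05), with 48 h signals so low (the 31.9 percentile) that the size is not exact. Pcolce2, an enhancer of procollagen processing, had 8.90, 8.66 and 9.14 at 6 h and 6.01, 5.65, 5.43 and 5.37 at 48 h and fell by 3.28 (SE 0.19). Mybl2, a transcription factor gene of dividing cells, had 9.14, 8.98 and 9.04 at 6 h and 6.85, 6.94, 6.68 and 6.22 at 48 h and fell by 2.38 (SE 0.18). In each of these 3 genes 1,25D 48 h replicate 4 held the lowest value. Epgn, a ligand of the EGF receptor, had 10.98, 10.83 and 10.96 at 6 h and 8.61, 8.71, 8.78 and 8.17 at 48 h and fell by 2.36 (SE 0.15). Cdh2, the gene of N-cadherin, had 7.45, 7.58 and 7.71 at 6 h and 5.64, 5.61, 5.37 and 4.65 at 48 h and fell by 2.27 (SE 0.24). Again replicate 4 was lowest at 48 h, and in Cdh2 it stood well below the other 3 arrays. Cad, the enzyme that opens pyrimidine synthesis, fell by 2.03, the nucleolar gene Rrp12 by 2.05 and the replication nuclease gene Dna2 by 2.20. Trmt61a, a transfer RNA methyltransferase gene, fell by 2.77, the carboxylesterase gene Ces1g fell by 2.63 and Apcdd1, an inhibitor of Wnt signalling, by 2.09. Vstm5 (-2.15), Lonrf3 (-2.10), Prl2a1 (-2.07) and Cdr2 (-2.02) were the other large falls.

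Some of these sizes depend on signals near the bottom of the range. In 17 of 191 called genes described here the mean at 1 of the times lay below the 40th percentile of all probe sets, where signal and background were not told apart. When 64 was added to each linear signal before the log, all 191 kept the limma call, and the change became over 1.5 times smaller in 32 of them. For Ccnb1ip1 it was then -2.08 in place of -3.58, for Rptn 3.30 in place of 5.42, for Tslp 3.08 in place of 4.66 and for Stfa2l1 2.42 in place of 4.16. Among genes described below, the change was 1.14 in place of 2.75 for Fabp4, 1.61 in place of 2.97 for Igfbp5, 1.61 in place of 2.85 for Kit, 1.51 in place of 2.68 for Defb3, 1.72 in place of 3.19 for Pigr and 0.81 in place of 2.52 for Wif1. The direction of these genes held, while the size of their changes is a rough value.

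**Figure D1:**
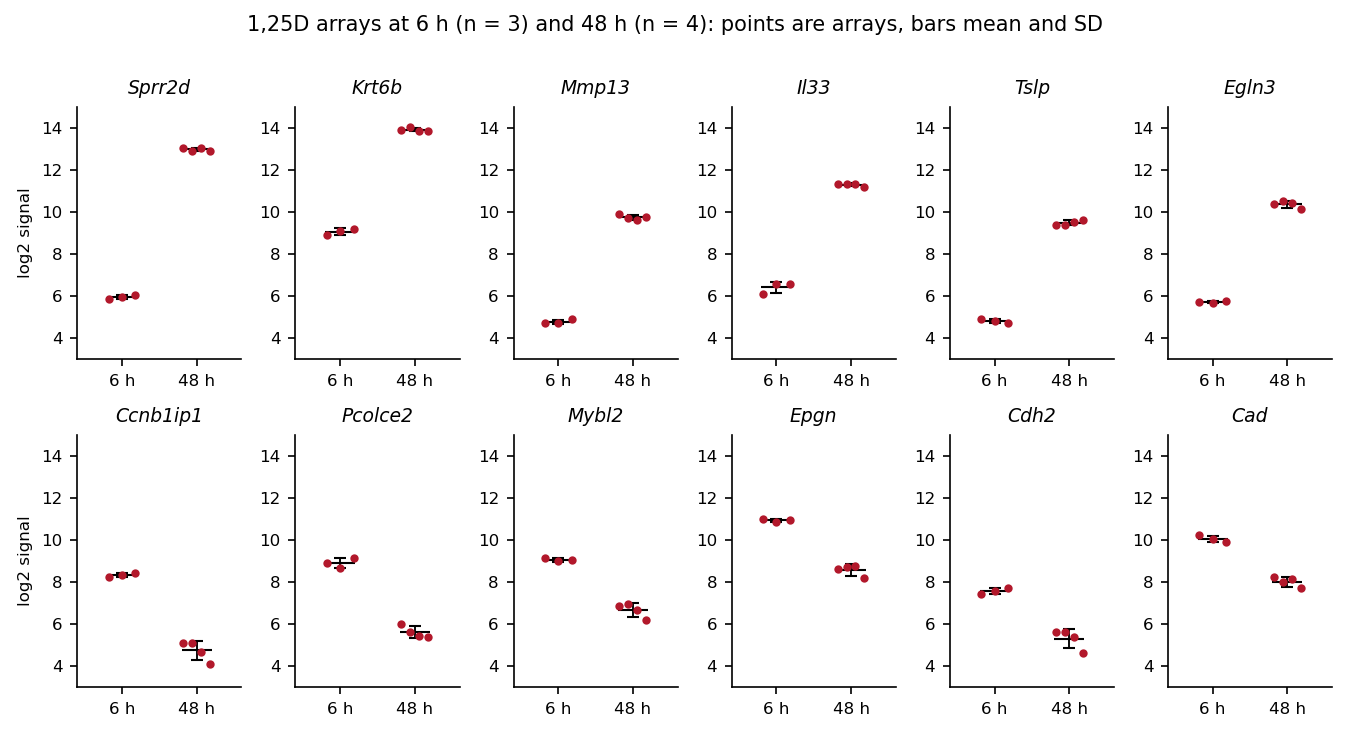
Log2 signal (y axis) of 6 genes among the largest rises (upper row) and 6 among the largest falls (lower row) on the 1,25D arrays at 6 h (3 points) and 48 h (4 points); each point is 1 array and bars give the mean and SD. The 6 h and 48 h points do not overlap in any panel, which was a condition for choosing these genes. Sprr2d moves from 5.85 to 6.07 at 6 h to 12.90 to 13.04 at 48 h.

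Some of the hormone's known targets changed between the times, and the receptor gene was not called. Cyp24a1 had signals of 13.05, 13.21 and 12.81 at 6 h and 12.18, 12.56, 12.39 and 12.43 at 48 h. The 48 h arrays lay below every 6 h array, and the fall was 0.64 (SE 0.11, adjusted p = 0.00302, and p = 0.0571 by a two-sided exact permutation test, the smallest that 3 against 4 arrays can give). Vdr, the receptor gene, had 9.37, 9.57 and 9.29 at 6 h and 9.66, 9.79, 9.82 and 9.56 at 48 h. Its groups overlapped, since the lowest 48 h array lay under the highest 6 h array, and the change of 0.30 was not called (adjusted p = 0.123, exact permutation p = 0.114). It was called with array weights (adjusted p = 0.0171) and after quantile normalization (adjusted p = 0.0406). Il1a, the gene of interleukin-1 alpha, had 8.98, 8.91 and 9.17 at 6 h and 9.65, 9.65, 9.79 and 9.71 at 48 h and rose by 0.68 (SE 0.10, adjusted p = 0.00189, exact permutation p = 0.0571). Of 38 measured genes of vitamin D signalling and known targets, 7 rose and 2 fell, 18.4% and 5.3% against 10.7% and 12.2% of all genes (median change 0.15). The count of rises ran from 3 to 9 with 1 array left out and moved by over 1.5 times without 1,25D 48 h replicate 3, 1,25D 6 h replicate 1 or 1,25D 6 h replicate 3. Txnip, an inhibitor of thioredoxin, had 7.0, 7.05 and 7.19 at 6 h and 10.17, 10.43, 9.93 and 10.18 at 48 h and rose by 3.10. Cd14, a co-receptor for bacterial lipopolysaccharide, rose by 0.94 and the claudin gene Cldn2 by 1.28. Over the same interval in vehicle Cd14 rose by 1.13 and Il1a by 1.18, while Cldn2 (0.15) was not called. The difference between the 2 changes was called in limma for none of these genes. It was -0.18 for Cd14, -0.49 for Il1a and 1.13 for Cldn2 (adjusted p = 0.985, 0.518 and 0.1). The change under 1,25D was called higher than that in vehicle in 1 of the 38 genes and lower in 1. The shares over all genes were 0.346% and 0.286%. Nrip1, a corepressor of nuclear receptors, ran from 9.55 to 9.81 at 6 h and 8.76 to 9.0 at 48 h and fell by 0.86, a call lost when all its probe sets were averaged (adjusted p = 0.317).

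Genes of the cornified envelope and of epidermal-type differentiation rose as a group. Of 47 measured members 33 rose and 1 fell, 70.2% against 10.7% of all genes, with a median change of 0.92. The small proline-rich genes led: after Sprr2d came Sprr2f, with 4.86, 4.48 and 4.66 at 6 h and 11.63, 11.56, 11.62 and 11.28 at 48 h, a rise of 6.86 (SE 0.14). Sprr1a had 7.54, 7.03 and 7.75 at 6 h and 12.50, 12.08, 12.78 and 12.40 at 48 h and rose by 5.00, and Sprr2h rose by 4.63. The stefin A genes Stfa3 and Csta1, inhibitors of cysteine proteases that are also laid into the envelope, rose by 3.06 and 3.08. No array of 1 time reached into the other in any of these 5 genes, which for the Sprr genes was a condition of being among the largest rises. Members of the Sprr2 and stefin A families are closely alike in sequence, so the array may not assign their signal to 1 member with certainty.

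The 250 bases before the start of 3 of these genes, and of Mmp13, are shown as examples of genes that rose strongly. Rptn (5.42) and Cyp2f2 (5.08) rose more than Sprr1a and Mmp13 and are not shown. The bases are RefSeq sequences of GRCm38.p6 on the gene's own strand, 5′ to 3′. Capitals mark TGANTCA, the letters of an AP-1 site (N is any base), searched on both strands.
Sprr2d, chr3:92338890-92339139, plus strand: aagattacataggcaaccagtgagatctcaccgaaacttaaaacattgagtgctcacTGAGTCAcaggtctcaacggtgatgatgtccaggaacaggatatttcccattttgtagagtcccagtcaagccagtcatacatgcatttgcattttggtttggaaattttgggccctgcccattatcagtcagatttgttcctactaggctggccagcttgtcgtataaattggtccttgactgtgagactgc
Sprr2f, chr3:92364937-92365186, plus strand: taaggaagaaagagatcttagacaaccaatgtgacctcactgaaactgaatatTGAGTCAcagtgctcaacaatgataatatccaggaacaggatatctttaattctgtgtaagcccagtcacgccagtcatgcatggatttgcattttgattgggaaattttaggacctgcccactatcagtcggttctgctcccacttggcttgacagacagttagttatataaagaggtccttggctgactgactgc
Sprr1a, chr3:92485882-92486131, minus strand: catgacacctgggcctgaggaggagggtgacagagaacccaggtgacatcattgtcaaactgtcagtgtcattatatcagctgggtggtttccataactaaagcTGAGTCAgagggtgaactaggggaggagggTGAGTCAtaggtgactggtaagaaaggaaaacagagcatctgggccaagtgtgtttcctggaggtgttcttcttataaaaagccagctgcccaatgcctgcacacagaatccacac
Mmp13, chr9:7272264-7272513, plus strand: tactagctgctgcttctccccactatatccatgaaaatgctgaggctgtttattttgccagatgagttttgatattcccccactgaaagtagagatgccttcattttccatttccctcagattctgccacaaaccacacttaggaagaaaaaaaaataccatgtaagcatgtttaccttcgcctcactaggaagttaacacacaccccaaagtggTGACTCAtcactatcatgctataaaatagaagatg

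The nearest match begins 35 bases before the start in Mmp13, 116 in Sprr1a, which holds 2 matches, 193 in Sprr2d and 197 in Sprr2f. Of 33 envelope members with a window in the table, 12 (36.4%) held the letters, against 5.6% of all 14452 genes with a window. A match is a description of the sequence only, and binding was not measured.

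Among lineage genes the shares that rose were above that of all genes (10.7%), and the shares that fell were below that of all genes (12.2%). Of 19 prostate basal cell genes 7 rose and none fell (36.8% rose, median 0.23). Trp63, the transcription factor that defines basal cells, had 8.26, 8.62 and 8.14 at 6 h and 9.53, 9.77, 9.17 and 9.26 at 48 h and rose by 1.09 (SE 0.18), with no overlap. Krt15 rose by 1.56, and the laminin genes Lama3 and Lamb3, parts of a basement membrane laminin, rose by 0.93 and 0.71. Jag1, a Notch ligand of basal cells, rose by 0.75. Of 26 luminal and secretory genes 7 rose and 3 fell, 26.9% and 11.5% (median 0.09). Krt19 ran from 9.38 to 9.86 at 6 h and 11.29 to 11.58 at 48 h and rose by 1.81, while Pigr, the carrier of antibodies across epithelium, went from 4.55 to 4.77 at 6 h to 7.13 to 8.39 at 48 h, a rise of 3.19. Krt8 fell by 0.31, a small change between tight groups (13.60 to 13.68 at 6 h and 13.30 to 13.35 at 48 h). The epithelial transcription factor gene Ehf rose by 1.64. Of 29 stem and progenitor markers 12 rose and 3 fell, 41.4% and 10.3% (median 0.11). Among these Kit, a receptor of luminal progenitors, had 5.17, 5.06 and 4.64 at 6 h and 8.42, 7.30, 8.12 and 7.40 at 48 h and rose by 2.85, and Psca, the prostate stem cell antigen gene, had 6.99, 6.48 and 7.01 at 6 h and 8.79, 8.40, 9.32 and 8.78 at 48 h and rose by 2.00. Id2 rose by 2.18 and Sox9 by 0.92. Abcg2, the transporter used to sort side-population cells, fell by 1.37. Of 30 tight junction and desmosome genes 10 rose and 1 fell, 33.3% and 3.3%, including the desmosome genes Perp (0.87), Dsc2 (1.5) and Dsp (0.70). The call for Dsp was lost when all its probe sets were averaged (adjusted p = 0.307).

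**Figure D2:**
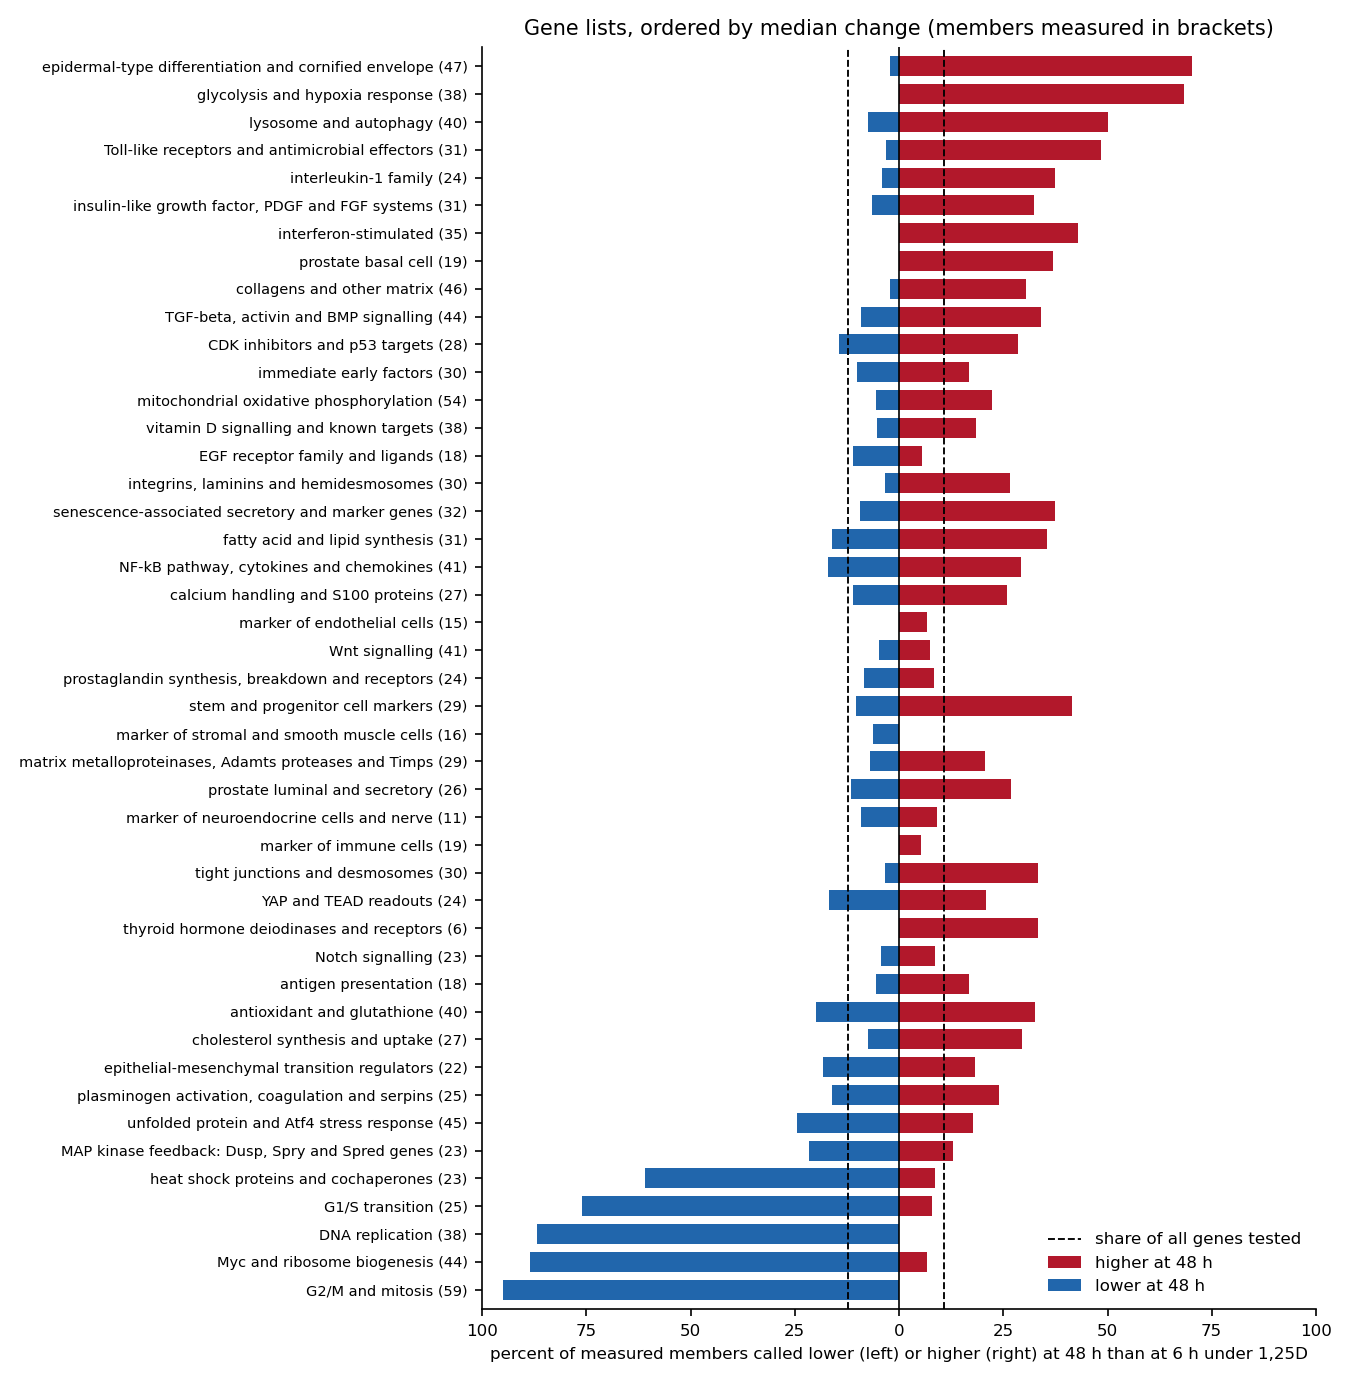
Percent of the measured members of each of 45 gene lists called lower (bars to the left) or higher (bars to the right) at 48 h than at 6 h under 1,25D, with the number of measured members in brackets and lists ordered by median change. Dashed lines give the shares over all genes, 12.2% lower and 10.7% higher; the envelope list reaches 70.2% higher and the G2/M list 94.9% lower.

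Genes of cell division fell. Of 59 measured genes of G2/M and mitosis 56 fell and none rose, 94.9% against 12.2% of all genes, with a median change of -1.10 and all 59 below 0. Ccna2, the cyclin of S phase and G2, had 11.79, 11.84 and 11.76 at 6 h and 10.19, 10.27, 10.19 and 10.28 at 48 h and fell by 1.56 (SE 0.07, adjusted p = 1.67e-06). Aurka, a kinase of the spindle poles, had 10.94, 10.80 and 10.99 at 6 h and 9.33, 9.27, 9.42 and 9.35 at 48 h and fell by 1.57 (SE 0.09). In both genes the 4 arrays at 48 h lay within 0.2 log2 units of each other and more than 1 unit below the 6 h arrays. Cdc20, which switches on the anaphase-promoting complex, fell by 1.25, Mad2l1, its checkpoint inhibitor, by 1.10, the mitotic kinase gene Plk1 by 1.5, Ccnb2 by 0.97 and the centromere histone gene Cenpa by 1.08. Of 38 DNA replication genes 33 fell and none rose (86.8% fell, median -0.89). Rrm2, a subunit of the enzyme that makes deoxynucleotides, had 12.13, 12.17 and 12.32 at 6 h and 10.92, 11.03, 10.84 and 11.06 at 48 h and fell by 1.24, and the helicase subunit genes Mcm3 and Mcm7 fell by 1.34 and 0.87. Pcna, the sliding clamp of DNA polymerase, fell by 0.73 (13.13 to 13.22 at 6 h and 12.34 to 12.56 at 48 h). Of 25 G1/S genes 19 fell and 2 rose, 76.0% and 8.0% (median -0.83). Cdc6, a licensing factor, fell by 1.90 and Skp2, which targets CDK inhibitors for destruction, by 1.83. Against that direction Ccnd1, the cyclin of G1, rose by 0.39, with 12.34 to 12.54 at 6 h and 12.77 to 12.92 at 48 h.

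The 250 bases before the start of Ccnb2 and Cdc20 are shown as examples of the mitotic genes that fell together. Capitals mark CCAAT, the letters of an NF-Y box, and TTTGAA, the core of the cell cycle homology region, on either strand (RefSeq, GRCm38.p6).
Ccnb2, chr9:70421555-70421804, minus strand: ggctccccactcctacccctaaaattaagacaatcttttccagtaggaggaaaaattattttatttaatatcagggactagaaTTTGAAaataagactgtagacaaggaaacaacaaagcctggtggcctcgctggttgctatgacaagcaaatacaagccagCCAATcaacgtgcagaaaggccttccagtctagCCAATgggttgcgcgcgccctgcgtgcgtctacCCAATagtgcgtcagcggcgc
Cdc20, chr4:118437344-118437593, minus strand: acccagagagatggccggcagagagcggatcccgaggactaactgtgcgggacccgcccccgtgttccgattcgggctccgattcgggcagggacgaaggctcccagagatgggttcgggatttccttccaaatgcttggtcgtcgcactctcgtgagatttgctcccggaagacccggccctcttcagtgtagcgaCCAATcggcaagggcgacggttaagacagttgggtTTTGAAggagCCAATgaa

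Ccnb2 holds 3 matches to CCAAT and 1 to TTTGAA, and Cdc20 holds 2 and 1. CCAAT occurred in 35 of 47 G2/M members with a window (74.5%), against 35.7% of all genes, and TTTGAA in 17 of 47 (36.2%), against 11.9%. Among 28 CDK inhibitors and p53 targets 8 rose and 4 fell, 28.6% and 14.3% against 10.7% and 12.2% of all genes (median 0.18). The falls ran from 2 to 5 with 1 array left out and moved by over 1.5 times without 1,25D 6 h replicate 1. Cdkn2b, which encodes the CDK4 and CDK6 inhibitor p15, had 8.57, 8.57 and 8.65 at 6 h and 9.97, 10.11, 10.15 and 9.85 at 48 h and rose by 1.43 (SE 0.11). The stress gene Gadd45a rose by 1.76 and the death receptor gene Fas by 1.43.

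Genes of ribosome production fell. Of 44 measured genes of Myc targets and ribosome biogenesis 39 fell and 3 rose, 88.6% against 12.2% of all genes (median -1.10). Odc1, which opens polyamine synthesis, had 13.25, 13.19 and 13.18 at 6 h and 12.14, 12.20, 12.11 and 12.06 at 48 h and fell by 1.08 (SE 0.05). The nucleolar genes Nolc1, Nop56 and Ncl fell by 1.54, 1.42 and 0.81. In all 4 genes the arrays of the 2 times did not overlap. The 3 members that rose include Myc itself, with 10.03, 10.10 and 10.23 at 6 h and 10.66, 10.78, 10.53 and 10.54 at 48 h, a rise of 0.51 (SE 0.10, adjusted p = 0.00577). Of 23 heat shock proteins and cochaperones 14 fell and 2 rose, 60.9% and 8.7% (median -0.45). Hsph1 had 12.76, 12.85 and 12.68 at 6 h and 11.08, 11.28, 11.05 and 11.14 at 48 h and fell by 1.62 (SE 0.07), while the mitochondrial chaperone genes Hspd1 and Hspe1 fell by 0.86 and 0.73 and Hsp90aa1 by 0.72. The 45 genes of the unfolded protein and Atf4 responses were divided, with 8 that rose and 11 that fell, 17.8% and 24.4% (median -0.049). The rises ran from 5 to 9 with 1 array left out and moved by over 1.5 times without 1,25D 48 h replicate 3. Hspa5, the main chaperone of the endoplasmic reticulum, fell by 0.62 and the serine synthesis gene Psat1 by 0.60, whereas the transcription factor gene Xbp1 rose by 0.61, Ddit3 by 0.92 and Nupr1 by 0.88.

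**Figure D3:**
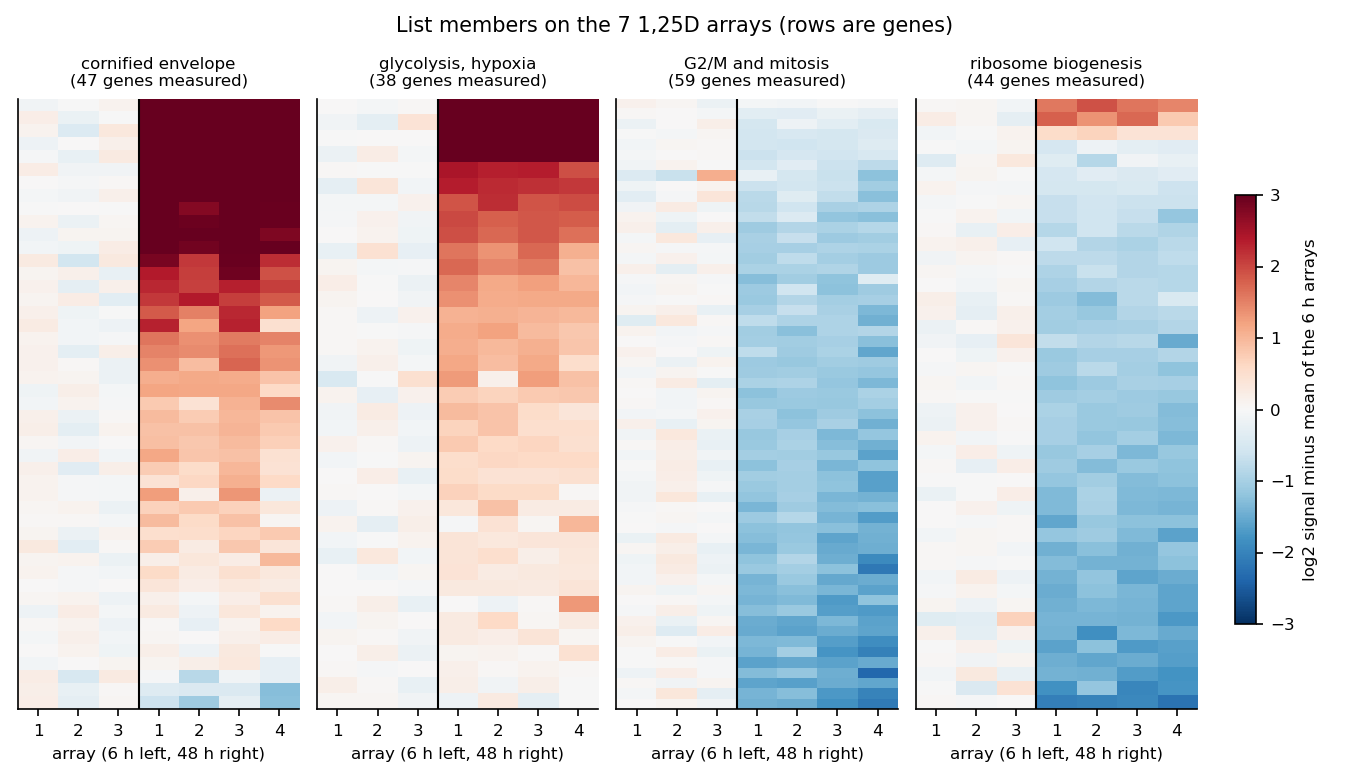
Log2 signal minus the mean of the 6 h arrays (colour, red higher and blue lower, shown up to 3 units either way) for the measured members of 4 lists (rows) on the 3 arrays at 6 h and the 4 at 48 h (columns). Most rows of the envelope and glycolysis lists turn red at 48 h and most of the G2/M and ribosome lists blue, on each of the 4 arrays.

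Genes of glycolysis and of the hypoxia response rose. Of 38 measured members 26 rose and none fell, 68.4% against 10.7% of all genes, with a median change of 0.71. Aldoc, a glycolytic aldolase gene, had 8.43, 8.45 and 8.46 at 6 h and 12.08, 12.04, 12.13 and 12.07 at 48 h and rose by 3.64 (SE 0.07, adjusted p = 1.49e-08). Bnip3, a hypoxia-induced mitochondrial autophagy receptor gene, had 7.99, 8.38 and 8.11 at 6 h and 11.71, 11.57, 11.73 and 11.70 at 48 h and rose by 3.52 (SE 0.11). Both genes had gaps of over 3 log2 units between the times. Selenbp1 rose by 4.02, the oxidoreductase gene Ero1a by 1.98, Mxi1, an antagonist of Myc, by 1.86 and Ndrg1 by 1.79. The angiogenic growth factor gene Vegfa, a hypoxia target, ran from 8.44 to 8.68 at 6 h and 9.42 to 9.68 at 48 h and rose by 0.99. Oxygen in the dishes was not measured.

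The 250 bases before the start of Bnip3 and Egln3 are shown as examples from the list. Selenbp1 (4.02) and Aldoc (3.64) rose more than Bnip3 and are not shown. Capitals mark ACGTG, the core of the hypoxia response element, on either strand (RefSeq, GRCm38.p6).
Bnip3, chr7:138909507-138909756, minus strand: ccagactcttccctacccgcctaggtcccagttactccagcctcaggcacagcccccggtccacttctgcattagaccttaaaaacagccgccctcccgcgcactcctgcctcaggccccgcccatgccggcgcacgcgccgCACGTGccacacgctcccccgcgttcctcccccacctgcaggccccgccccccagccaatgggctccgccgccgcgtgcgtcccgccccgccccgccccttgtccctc
Egln3, chr12:54203875-54204124, minus strand: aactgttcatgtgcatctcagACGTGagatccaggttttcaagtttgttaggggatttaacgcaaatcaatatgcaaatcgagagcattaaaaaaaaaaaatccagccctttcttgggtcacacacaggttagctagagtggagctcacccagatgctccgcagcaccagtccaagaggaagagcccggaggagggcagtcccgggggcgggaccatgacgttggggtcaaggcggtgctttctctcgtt

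In Bnip3 the 2 matches lie on opposite strands of the same letters, beginning 107 bases before the start at the nearest, and Egln3 holds 1 match 229 bases before it. The letters occurred in 19 of 36 members with a window (52.8%), against 19.8% of all genes.

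Other metabolic and degradative lists moved in part. Of 40 lysosome and autophagy genes 20 rose and 3 fell, 50% and 7.5% against 10.7% and 12.2% of all genes (median 0.43). Map1lc3a, an autophagosome protein gene, had 10.11, 9.60 and 9.82 at 6 h and 11.46, 11.23, 11.50 and 11.39 at 48 h and rose by 1.55, and the cathepsin genes Ctsb and Ctsh rose by 0.68 and 0.74. Of 31 genes of fatty acid and lipid synthesis 11 rose and 5 fell, 35.5% and 16.1% (median 0.14). The counts moved by over 1.5 times without 1,25D 6 h replicate 1, with rises between 8 and 13 and falls between 3 and 6 over the 7 omissions. Fabp4, a fatty acid binding protein gene, had 4.11, 4.19 and 3.96 at 6 h and 7.16, 6.75, 6.78 and 6.66 at 48 h and rose by 2.75 (SE 0.15). Acss2 rose by 1.92, Cpt1a, the gate to mitochondrial fat oxidation, by 1.48 and the triglyceride synthesis gene Dgat1 by 1.30, whereas the synthase gene Fasn fell by 0.70. Of 27 cholesterol genes 8 rose and 2 fell, 29.6% and 7.4% (median 0.001). Ch25h, which makes 25-hydroxycholesterol, had 6.31, 6.45 and 6.54 at 6 h and 8.91, 8.78, 8.85 and 9.08 at 48 h and rose by 2.47, while Idi1, of the mevalonate pathway, fell by 0.60. Of 40 antioxidant and glutathione genes 13 rose and 8 fell, 32.5% and 20.0% (median 0.005). Srxn1 and Txnrd1, both known targets of Nrf2, fell by 1.67 and 1.35, while Gsto1 rose by 1.42, Gstm1 by 1.36 and the metallothionein genes Mt1 and Mt2 by 0.90 and 0.76. Of 54 genes of oxidative phosphorylation 12 rose and 3 fell, 22.2% and 5.6% (median 0.16), most by small steps, such as Ndufa1 of complex I (0.48) and Cox4i1 of complex IV (0.24, a call lost without the intensity trend). That list depended on the processing, with 22 rises after quantile normalization and 3 without the intensity trend, and with 7 to 13 when 1 array was left out, where 1,25D 48 h replicate 3 and 1,25D 6 h replicate 2 moved a count by over 1.5 times.

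Cytokine and antimicrobial genes rose more often than they fell. Of 31 Toll-like receptor and antimicrobial genes 15 rose and 1 fell (48.4% rose against 10.7% of all genes, median 0.43). Saa3, an acute-phase protein gene, had 9.25, 9.19 and 8.97 at 6 h and 12.98, 12.95, 12.90 and 12.96 at 48 h and rose by 3.81 (SE 0.08). Ltf, the gene of lactoferrin, had 11.73, 11.76 and 11.58 at 6 h and 13.91, 13.79, 13.83 and 13.82 at 48 h and rose by 2.15 (SE 0.05). In both genes the 4 arrays at 48 h were almost equal and lay above every 6 h array. The calprotectin genes S100a8 and S100a9 rose by 1.68 and 3.26, the defensin gene Defb3 by 2.68 and the chitinase-like gene Chil1 by 1.20. Of 24 interleukin-1 family genes 9 rose and 1 fell, 37.5% and 4.2% (median 0.41). Beside Il33 and Il1a, Il18 had 6.20, 6.45 and 6.34 at 6 h and 9.2, 9.52, 9.41 and 9.35 at 48 h and rose by 3.04, the interleukin-36 ligand genes Il1f9 and Il1f6 rose by 2.05 and 1.53, the receptor antagonist gene Il1rn by 1.34 and Casp1, the protease that matures interleukin-18, by 1.08. Of 41 NF-kB, cytokine and chemokine genes 12 rose and 7 fell, 29.3% and 17.1% (median 0.13). The falls ran from 4 to 6 with 1 array left out and moved by over 1.5 times without 1,25D 48 h replicate 1 or 1,25D 6 h replicate 3. Il6 had 5.88, 5.89 and 6.04 at 6 h and 8.48, 8.20, 8.37 and 8.29 at 48 h and rose by 2.4 (SE 0.13), Birc3 rose by 1.16 and Nfkbiz, an atypical inhibitor protein of the pathway, by 1.12, while Lif fell by 1.03. Of 35 interferon-stimulated genes 15 rose and none fell (42.9% rose, median 0.36). The rises ran from 8 to 19 with 1 array left out and moved by over 1.5 times without 1,25D 48 h replicate 1, 1,25D 6 h replicate 1 or 1,25D 6 h replicate 3. Ifi35 had 10.22, 10.16 and 10.15 at 6 h and 11.37, 11.46, 11.24 and 11.31 at 48 h and rose by 1.17, and Xaf1, Zbp1 and Irf1 rose by 1.32, 1.32 and 0.86. Of 18 antigen presentation genes 3 rose (1 to 4 with 1 array left out) and 1 fell. These were 16.7% and 5.6%, against 10.7% and 12.2% of all genes. Tapbp, a loading factor of class I molecules, rose by 1.28.

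Proteases, protease inhibitors and matrix genes included some of the largest changes. Of 29 matrix metalloproteinase, Adamts and Timp genes 6 rose and 2 fell, 20.7% and 6.9% (median 0.105). Over all genes 10.7% rose and 12.2% fell. The stromelysin genes Mmp3 and Mmp10 had signals of 7.47, 7.06 and 7.61 at 6 h and 8.84, 9.0, 8.61 and 8.58 at 48 h, and of 6.31, 6.22 and 6.24 at 6 h and 7.53, 7.37, 7.46 and 7.31 at 48 h. They rose by 1.38 (SE 0.17) and 1.16 (SE 0.13). The aggrecanase gene Adamts5 rose by 2.08. The inhibitor genes moved in opposite directions, since Timp3 had 11.99, 12.35 and 12.11 at 6 h and 13.23, 13.47, 13.26 and 13.27 at 48 h and rose by 1.16 while Timp1 had 12.22, 11.86 and 12.44 at 6 h and 11.27, 11.38, 11.33 and 11.26 at 48 h and fell by 0.87. Of 25 plasminogen, coagulation and serpin genes 6 rose and 4 fell, 24.0% and 16% (median -0.014). Plat, the tissue activator of plasminogen, rose by 1.81, Plaur, the receptor of the urokinase activator, fell by 1.28, Serpinb2, an inhibitor of both activators, rose by 1.52 and F13a1, which cross-links fibrin, rose by 1.87. Of 46 collagen and matrix genes 14 rose and 1 fell, 30.4% and 2.2% (median 0.19). Prelp, a matrix proteoglycan gene, had 8.06, 8.49 and 7.86 at 6 h and 10.73, 10.33, 10.55 and 10.31 at 48 h and rose by 2.34, Col4a5 rose by 2.33 and the collagen prolyl hydroxylase genes P4ha1 and P4ha2 by 1.19 and 2.27. Vcan, a large proteoglycan gene, had 8.96, 8.86 and 9.25 at 6 h and 7.36, 7.27, 7.04 and 6.57 at 48 h and fell by 1.96. Of 30 integrin, laminin and hemidesmosome genes 8 rose and 1 fell, 26.7% and 3.3% (median 0.15), with Itgb8, an activator of TGF-beta, rising by 1.58, Itgb5 by 0.85 and Lamb2 by 0.76. The rises ran from 5 to 8 with 1 array left out and moved by over 1.5 times without 1,25D 6 h replicate 1 or 1,25D 6 h replicate 3.

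Signalling lists stayed in part near the shares of all genes (10.7% rose, 12.2% fell), and those of the growth factor and TGF-beta systems held more rises. Of 30 immediate early genes 5 rose and 3 fell, 16.7% and 10.0% (median 0.17), and 8 rose after quantile normalization. Egr1 had 7.13, 7.48 and 6.76 at 6 h and 9.85, 9.93, 9.77 and 9.73 at 48 h and rose by 2.70 (SE 0.17), whereas Fosl1, a partner in AP-1, had 10.04, 9.53 and 10.13 at 6 h and 8.61, 8.57, 8.83 and 8.07 at 48 h and fell by 1.38. Ccn2, a matricellular protein gene, rose by 1.23 between tight groups. Of 23 MAP kinase feedback genes 3 rose and 5 fell, 13% and 21.7% (median -0.21). The falls ran from 2 to 6 with 1 array left out and moved by over 1.5 times without 1,25D 6 h replicate 1 or 1,25D 6 h replicate 3. Spry1 and Dusp6 rose by 0.90 and 0.86 and Dusp9 fell by 1.26. Of 18 EGF receptor and ligand genes 1 rose and 2 fell, 5.6% and 11.1% (median 0.15): the receptor gene Erbb3 rose by 1.10, while the ligand genes Epgn and Ereg fell, Ereg by 1.05 (11.47 to 11.65 at 6 h and 10.38 to 10.56 at 48 h). Of 31 genes of the insulin-like growth factor, PDGF and FGF systems 10 rose and 2 fell, 32.3% and 6.5% (median 0.39). Igf1 rose by 1.04, Igfbp5 by 2.97 and Vegfc by 1.60, while Pdgfb had 10.50, 10.32 and 10.27 at 6 h and 9.17, 9.05, 9.08 and 8.91 at 48 h and fell by 1.31 (SE 0.11). Of 44 TGF-beta, activin and BMP genes 15 rose and 4 fell, 34.1% and 9.1% (median 0.19). The falls ran from 0 to 4 with 1 array left out and moved by over 1.5 times without 5 of the 7 arrays (1,25D 48 h replicates 1 and 3 and 1,25D 6 h replicates 1, 2 and 3). The inhibin subunit genes Inhbb and Inha rose by 1.49 and 1.58, the activin trap gene Fst by 1.08, the coreceptor gene Tgfbr3 by 1.55 and Id1, a BMP target, by 1.24. Of 41 Wnt genes 3 rose and 2 fell, 7.3% and 4.9% against 10.7% and 12.2% of all genes. The secreted Wnt inhibitor gene Wif1 had 3.46, 3.51 and 3.62 at 6 h and 6.58, 6.11, 6.19 and 5.34 at 48 h and was called higher, with 6 h signals among the lowest on the arrays (the 2.31 percentile). Of 23 Notch genes 2 rose and 1 fell, 8.7% and 4.3%, and Notch3 rose by 1.78. Of 24 YAP and TEAD readouts 5 rose and 4 fell, 20.8% and 16.7%, with 1 to 6 falls when 1 array was left out and counts moved by over 1.5 times without any of the 3 arrays at 6 h. Birc5, a survival gene of mitotic cells, fell by 0.94 and Nt5e, which makes extracellular adenosine, rose by 1.09. Of 22 regulators of epithelial-mesenchymal transition 4 rose and 4 fell, 18.2% and 18.2%. The rises ran from 0 to 4 and moved by over 1.5 times without 1,25D 48 h replicates 1 or 3 or 1,25D 6 h replicates 1 or 3. Vim, Zeb1 and S100a4 fell by 0.82, 0.79 and 0.98, in a list whose rises and falls were equal in number. The rises, which are not named here, included a mesenchymal gene as well as an epithelial one.

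Among the remaining lists that of prostaglandin genes lay near the shares of all genes (10.7% rose, 12.2% fell). Of 24 prostaglandin genes 2 rose and 2 fell, 8.3% and 8.3%, and Pla2g7, which inactivates platelet-activating factor, fell by 1.24. Of 6 thyroid hormone deiodinase and receptor genes 2 rose: Dio2, which activates the hormone, had 7.83, 8.34 and 7.87 at 6 h and 9.58, 9.73, 9.28 and 9.52 at 48 h and rose by 1.51, and Thra rose by 0.92. Of 27 calcium handling and S100 genes 7 rose and 3 fell, 25.9% and 11.1% (median 0.13), with S100a1 rising by 1.49. Of 32 genes of the senescence-associated secretory program 12 rose and 3 fell, 37.5% and 9.4% (median 0.15), and its leading members, Mmp13, Il6, Cdkn2b and Plat, belong to lists given above.

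In each list of markers of cells the culture could also hold, at most 1 member rose and at most 1 fell. That was at most 9.1% of a list either way, against 10.7% and 12.2% of all genes. The median changes of the stromal, immune, endothelial and nerve lists were 0.106, 0.061, 0.123 and 0.066. The summed linear signal was lower at 48 h for the stromal list and higher for the other lists, with no overlap of the arrays. Such a sum is weighted to the brightest members and does not show a shift of a whole list. Of 16 stromal and smooth muscle markers none rose and 1, Vim, fell. The summed linear signal of that list was 2910.8 to 3408.9 at 6 h and 1986.8 to 2382.3 at 48 h. Vim was its brightest member, and 12 of the 16 markers had a change above 0. Of 19 immune markers 1 rose, Cd68, with 5.48, 5.68 and 5.48 at 6 h and 7.89, 7.92, 8.22 and 7.66 at 48 h, a change of 2.38. Cd68 is a lysosomal membrane protein gene of macrophages that other cells can also express, and the summed signal of the immune list went from 792.3 to 891.1 at 6 h to 968.4 to 1152.7 at 48 h. The defining immune genes Ptprc and Adgre1 were not called (changes of 0.14 and 0.04, adjusted p = 0.581 and 0.884). Of 15 endothelial markers 1 rose, Egfl7 (0.67), whose call was lost without 1,25D 48 h replicate 3 or any of the 3 arrays at 6 h. Of 11 neuroendocrine and nerve markers Ncam1 rose (0.54) and Tubb3 fell (-1.33). The call for Ncam1 was lost without 1,25D 6 h replicate 1 or 3, and that for Tubb3 without any of the 7 arrays but 1,25D 48 h replicate 4. The summed signals of these 2 lists ran from 773.4 to 830.2 and from 692.4 to 787.6 at 6 h, and from 854.3 to 1249.7 and from 859.9 to 972.3 at 48 h. The mean signal was below the median of all probe sets in 9 of 16 stromal, 13 of 19 immune, 11 of 15 endothelial and 9 of 11 nerve markers. The part of such cells in the results above was not tested. Fewer cells of a type and less RNA per cell cannot be told apart in such samples.

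The change over the same interval without hormone was taken from the 6 vehicle arrays, which share no array with the treated ones. Its limma calls came from the fit over all 13 arrays, where both treatments share 1 spread per probe set. The 1,25D calls came from the 7 treated arrays alone, so the 2 sets of calls rest on different fits. In the shared fit 4265 genes were called under 1,25D. In vehicle 3382 genes (18.6%) differed between 48 h and 6 h, 1790 higher (9.84%) and 1592 lower (8.75%). 2681 genes were called in the same direction in both, 64.4% of the 1,25D list and 79.3% of the vehicle list, and 7 in opposite directions. Across genes, which are not independent replicates, the 2 sets of changes had a Pearson r of 0.826. Several lists had like medians in both, a likeness that was not tested: the median change of the glycolysis list was 0.71 under 1,25D and 0.75 in vehicle, that of ribosome biogenesis -1.10 and -1.04 and that of lysosome genes 0.43 and 0.44. The G2/M list had medians of -1.10 and -0.84, with 56 falls under 1,25D and 46 in vehicle. In 2 of its 59 members, against 0.286% of all genes, the change under 1,25D was called lower than in vehicle: Nusap1, a spindle protein gene (difference -0.81, adjusted p = 0.0285), and Stmn1, a microtubule destabiliser (-0.52, adjusted p = 0.0415), both named after their values were seen. The call for Nusap1 was lost in 9 and that for Stmn1 in 12 of the 13 fits with 1 array left out. The envelope list moved by 0.92 under 1,25D and 0.37 in vehicle. The medians of the cytokine and antimicrobial lists were above 0 in both. They were 0.43 under 1,25D and 0.66 in vehicle for Toll-like receptor and antimicrobial genes, and 0.36 and 0.47 for interferon-stimulated genes. For the interleukin-1 family they were 0.41 and 0.48, and for NF-kB, cytokine and chemokine genes 0.13 and 0.08. No member of the glycolysis, lysosome, DNA replication or G1/S lists had a called difference between the 2 changes. That does not show the changes to be equal. In simulated data the test of the difference found 52 of 100 differences of 1 log2 unit and 86 of 100 of 2 units. The simulated arrays had independent noise with 1 spread per probe set. In the real data the deviations of vehicle 6 h replicate 1 and 1,25D 48 h replicate 4 correlated (r = 0.745), so these shares are a rough guide.

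The difference itself, the change under 1,25D minus that in vehicle, was tested in a limma fit over all 13 arrays. It was called in 115 genes (0.632% of 18193), 63 higher (0.346%) and 52 lower (0.286%) under 1,25D. Without single arrays the count ran from 66 (without 1,25D 6 h replicate 1) to 130 (without 1,25D 48 h replicate 4), and it was 75 without vehicle 48 h replicate 2. Without 1,25D 48 h replicate 4 and vehicle 6 h replicate 1 together, the 2 arrays that stood apart among the 13, it was 199.

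**Figure D4:**
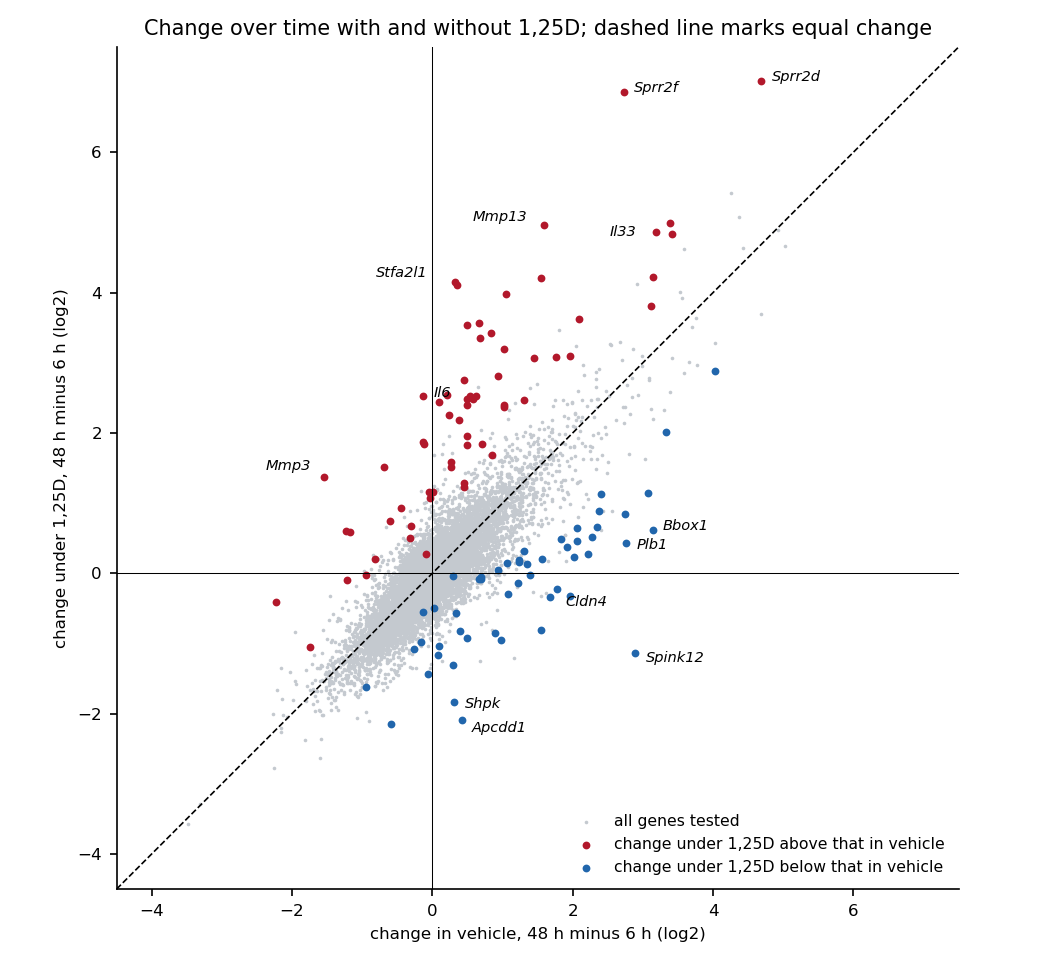
Change from 6 h to 48 h in vehicle (x axis) against that under 1,25D (y axis), both in log2 units, for 18193 genes; red marks the 63 genes whose change under 1,25D was above that in vehicle and blue the 52 below it, and the dashed line marks equal change. Most genes lie along the line, while Mmp13 and Stfa2l1 lie far above it and Spink12 and Apcdd1 far below.

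12 of the 47 envelope genes, and none in the other direction, rose more under 1,25D than in vehicle, a share to be read against 0.346% of all genes. Sprr2f had vehicle signals of 5.22, 4.69 and 3.97 at 6 h and 7.16, 7.16 and 7.74 at 48 h, a change of 2.73, so that the difference was 4.13 (SE 0.36, adjusted p = 0.000104). Sprr2d had vehicle signals of 5.46, 5.66 and 6.11 at 6 h and 10.23, 10.27 and 10.78 at 48 h, with a difference of 2.33 (adjusted p = 0.000391). At 6 h the vehicle and treated arrays of both genes overlapped, and at 48 h all 4 treated arrays exceeded all 3 vehicle arrays. For Cdsn the difference was 2.65, for Krt6b 1.42, for Sprr2i 2.93 and for Stfa3 1.62. The difference in Csta1 (1.31) kept its call in only 2 of the 13 fits with 1 array left out, those without replicate 4 of 1,25D at 48 h and without replicate 1 of vehicle at 6 h. That in Sprr1a (1.61) kept it in only 4, those without replicates 2 and 4 of 1,25D at 48 h, replicate 3 of 1,25D at 6 h and replicate 3 of vehicle at 48 h. Stfa2l1 had 4.22, 4.35 and 4.22 at 6 h and 4.61, 4.55 and 4.61 at 48 h in vehicle, and its difference was 3.83 (SE 0.19, adjusted p = 6.98e-07). The kallikrein genes Klk1b1, Egfbp2 and Klk1b11, serine proteases of 1 closely similar family whose signals may not be assigned to 1 member with certainty, had differences of 3.76, 3.05 and 2.67. Klk1b1 had 5.17, 4.75 and 5.15 at 6 h and 9.36, 9.28, 9.08 and 8.85 at 48 h under 1,25D and 5.38, 4.44 and 4.26 at 6 h and 4.86, 5.16 and 5.14 at 48 h in vehicle. Teddm3 and Tmigd1 had differences of 2.91 and 2.67.

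4 of the 29 metalloproteinase, Adamts and Timp genes were higher in this comparison and none lower, against 0.346% and 0.286% of all genes. Mmp3 went in opposite directions, with vehicle signals of 6.68, 6.90 and 6.85 at 6 h and 5.19, 5.23 and 5.37 at 48 h, a fall of 1.55 against the rise of 1.38 under 1,25D. The difference was 2.92 (SE 0.23, adjusted p = 6.05e-05). Mmp13 had 3.54, 4.05 and 4.04 at 6 h and 5.27, 5.17 and 5.95 at 48 h in vehicle and a difference of 3.38 (adjusted p = 8.65e-05). Timp3 had 13.21, 13.51 and 13.26 at 6 h and 13.39, 13.30 and 13.31 at 48 h in vehicle, so that every treated array lay under every vehicle array at 6 h and the 2 sets overlapped at 48 h (difference 1.15, adjusted p = 0.000884). Il6 followed the same course: vehicle signals were 7.39, 7.5 and 7.62 at 6 h and 7.82, 8.31 and 7.87 at 48 h, treated arrays were lower at 6 h, and the difference in change was 1.90 (adjusted p = 0.000559). The call for Mmp10 (1.22) was lost without any of the 3 arrays of 1,25D at 6 h, vehicle 48 h replicate 1 or vehicle 48 h replicate 2. Fabp4 had 4.16, 4.05 and 3.84 at 6 h and 4.58, 4.50 and 4.31 at 48 h in vehicle and a difference of 2.31, F13a1 one of 2.00, Il33 one of 1.68 and Ccn2 one of 0.78. With 64 added to the linear signals 12 of the 54 differences described here became over 1.5 times smaller, among them that of Fabp4 (1.04), and those of Wif1 (0.71, adjusted p = 0.0507) and Ch25h (0.70, adjusted p = 0.1) lost the call.

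Most of the genes described here with a lower change under 1,25D were of either of 2 kinds. Those of the first rose in vehicle and fell, were not called or rose less under 1,25D. Spink12, a Kazal-type protease inhibitor gene, had 7.22, 7.07 and 7.35 at 6 h and 9.90, 10.04 and 10.38 at 48 h in vehicle against 7.08, 6.88 and 6.74 at 6 h and 5.92, 5.07, 5.69 and 6.36 at 48 h under 1,25D. The difference was -4.03 (SE 0.35, adjusted p = 9.96e-05), although the fall under 1,25D alone was not called without 1,25D 48 h replicate 3, 1,25D 6 h replicate 1 or 1,25D 6 h replicate 2. Plb1, a phospholipase gene, had 7.42, 7.53 and 7.20 at 6 h and 10.04, 10.34 and 10.06 at 48 h in vehicle and 7.23, 7.07 and 7.10 at 6 h and 7.54, 7.40, 7.74 and 7.59 at 48 h under 1,25D, a difference of -2.33 (adjusted p = 9.02e-05) that was lost when all its probe sets were averaged. Wfdc3, a whey acidic protein family gene, and Glycam1, a mucin-type gene, had differences of -2.28 and -1.95. Cldn4, a tight junction gene, had 9.79, 10.11 and 10.08 at 6 h and 11.84, 11.67 and 11.80 at 48 h in vehicle and 11.35, 11.51 and 11.69 at 6 h and 11.37, 10.94, 11.42 and 11.44 at 48 h under 1,25D, where it was already high at 6 h (difference -2.0). Nupr1, a stress-response gene, rose in both, by 2.37 in vehicle and 0.88 under 1,25D (difference -1.49). Acod1 (-2.01) lost its call without 1,25D 6 h replicate 1, Bbox1 (-2.53) without any 1 array other than 1,25D 48 h replicates 1, 3 and 4, and Col11a1 (-2.35) without any 1 array other than the 4 of 1,25D at 48 h and vehicle 6 h replicate 3. Those of the second were higher with hormone at 6 h and came down by 48 h. Apcdd1 had 8.05, 8.46 and 8.16 at 6 h and 6.04, 6.31, 6.07 and 6.12 at 48 h under 1,25D and 5.39, 5.67 and 5.55 at 6 h and 6.25, 5.65 and 5.97 at 48 h in vehicle, and the difference was -2.51 (SE 0.24, adjusted p = 0.000181). Shpk, a carbohydrate kinase gene, and Pdgfb had differences of -2.14 and -1.60, with vehicle signals of 8.24, 8.37 and 8.66 at 6 h and 8.42, 8.73 and 8.98 at 48 h for Pdgfb. At 48 h the treated and vehicle arrays of Apcdd1, Shpk and Pdgfb overlapped. Lif was not of the first kind, since its change in vehicle was 0.09 (adjusted p = 0.869), and it fell by 1.03 under 1,25D. Its difference of -1.12 kept the call only without vehicle 6 h replicate 3 among the 13 fits with 1 array left out.

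**Figure D5:**
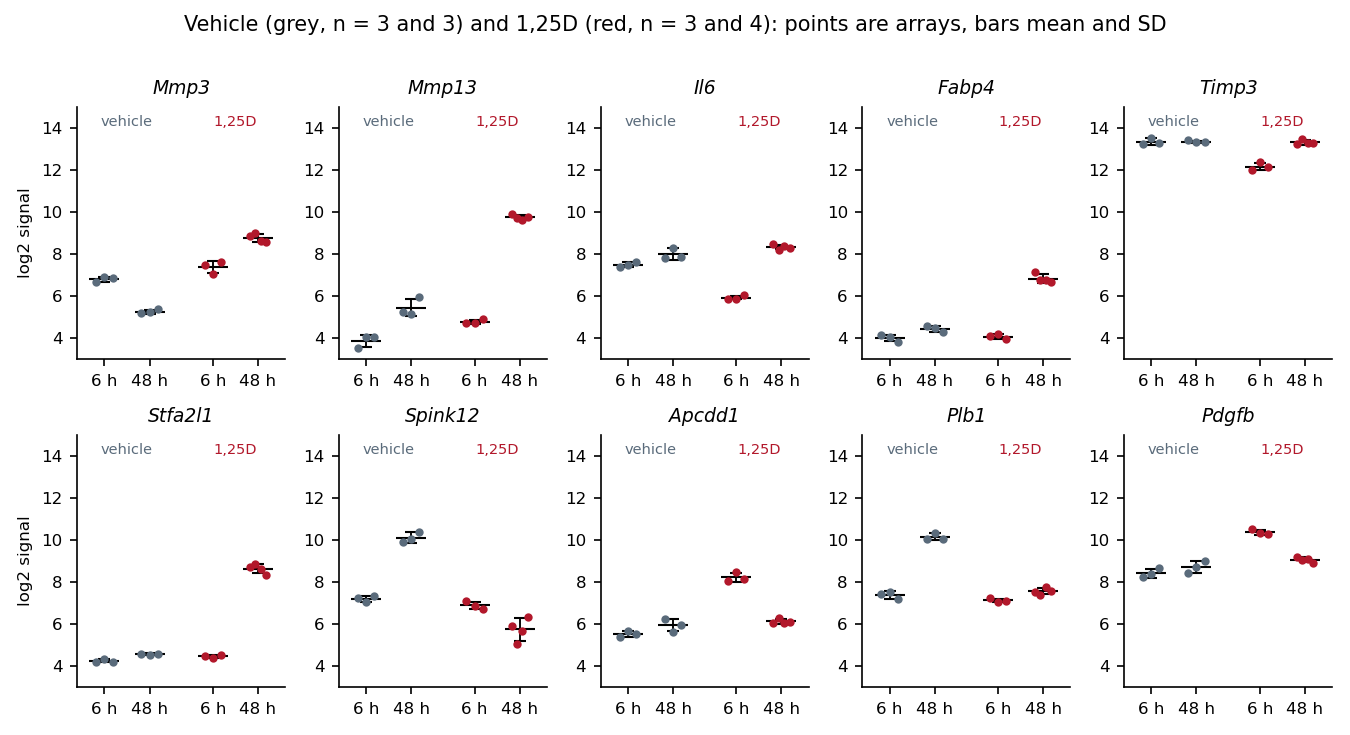
Log2 signal (y axis) of 10 genes whose change from 6 h to 48 h differed between 1,25D (red, 3 and 4 arrays) and vehicle (grey, 3 and 3 arrays); points are arrays and bars give the mean and SD. Mmp3 falls in vehicle and rises under 1,25D, Spink12 and Plb1 rise in vehicle, and Apcdd1 and Pdgfb start high under 1,25D at 6 h and come down.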

How the data were processed

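RNA of 13 samples was measured on Affymetrix whole-genome mouse arrays. The authors deposited 1 table of log2 signals, and the submitters' processing notes name MAS5 with no version. How the values were scaled and logged is not given in the sources used here. The log2 values were used as deposited. Of 45101 probe sets, 64 controls were removed and 45037 were tested, of which 34945 had 1 gene symbol, 932 several and 9160 none. Each of 18193 genes was read from the probe set whose mean over all 13 arrays was highest, and 34741 probe sets matched a RefSeq gene of GRCm38.p6. Groups were taken from the sample titles.

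The time change was fitted with limma 3.58.1 (R 4.3.3; eBayes with an intensity trend) on the 7 treated arrays, and the difference from vehicle on all 13, with Benjamini-Hochberg adjustment over all 45037 probe sets. Exact permutation tests used scipy 1.17.1, under Python 3.11.15, and figures matplotlib 3.10.9. Named genes were the 15 largest rises and falls whose arrays did not overlap, the 10 largest differences from vehicle each way, Cyp24a1, Vdr and Il1a, and in each list up to 5 called members by smallest p and up to 2 further ones. Predicted genes were skipped. Members and gene lists were chosen with earlier results of these data known. Both fits were tested on simulated data. The number of arrays limits the precision. Alternatives covered the offset, normalization, trend, array weights, dim and multi-match probe sets, and each array left out.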

Additional observations from a re-analysis of the deposited data

Results flagged for a closer look

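Among the named genes, 36 stand here because their change from 6 h to 48 h was higher under 1,25D than in vehicle by the limma test of the difference, with all adjusted p under 0.05, and 18 because it was lower. The differences on the log2 scale were Sprr2f (4.13), Stfa2l1 (3.83), Klk1b1 (3.76), Mmp13 (3.38), Egfbp2 (3.05), Sprr2i (2.93), Mmp3 (2.92), Teddm3 (2.91), Klk1b11 (2.67), Tmigd1 (2.67), Cdsn (2.65), Sprr2d (2.33) and Fabp4 (2.31). Further ones were Serpinb2 (2.21), F13a1 (2.00), Wif1 (1.99), Il6 (1.90), Il33 (1.68), Stfa3 (1.62), Sprr1a (1.61), Krt6b (1.42), Lama3 (1.38), Jag1 (1.36), Cd68 (1.35), Csta1 (1.31) and Dio2 (1.24), and the smallest were Mmp10 (1.22), Ch25h (1.16), Timp3 (1.15), Fst (1.11), Mgp (1.07), S100a8 (0.83), Myc (0.82), Ccn2 (0.78), Ereg (0.69) and Saa3 (0.69). The lower ones were Spink12 (-4.03), Bbox1 (-2.53), Apcdd1 (-2.51), Col11a1 (-2.35), Plb1 (-2.33), Wfdc3 (-2.28), Shpk (-2.14), Acod1 (-2.01), Cldn4 (-2.0), Glycam1 (-1.95), Pdgfb (-1.60), Vstm5 (-1.57), Nupr1 (-1.49), Lif (-1.12), S100a4 (-0.82), Nusap1 (-0.81), Hsph1 (-0.67) and Stmn1 (-0.52). Of these 54 differences 29 kept the call in all 13 fits with 1 array left out and 25 did not.

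In 9 named genes 1 of the 4 arrays of 1,25D at 48 h lay far from the other 3 by Dixon's criterion: Casp1 (6.42 in replicate 4 against 6.75 to 6.82), Cldn4 (10.94 in replicate 2 against 11.37 to 11.44), Col11a1 (6.61 in replicate 4 against 7.78 to 7.84), Mad2l1 (10.23 in replicate 4 against 10.12 to 10.14), Nusap1 (8.88 in replicate 4 against 9.09 to 9.13), P4ha1 (8.28 in replicate 1 against 8.02 to 8.03), Serpinb2 (7.01 in replicate 4 against 7.49 to 7.51), Trmt61a (6.10 in replicate 4 against 6.78 to 6.88) and Xbp1 (12.12 in replicate 2 against 11.98 to 12). Chance marks about 1 in 20 groups of 4 this way. In 6 of the 9 the array was replicate 4, the one that stood apart in the principal components.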

How the results depend on the processing

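The called genes over time under 1,25D stayed within 1.5 times the main counts of 1938 higher and 2224 lower in the alternatives run, apart from array weights, with 3006 higher, and the fit without 1,25D 6 h replicate 1, with 1478 lower. Over the 7 fits with 1 array left out, the higher genes ran from 1398 to 2455 and the lower genes from 1478 to 2419. The difference from vehicle, 115 genes with 63 higher and 52 lower, was more sensitive. Array weights gave 262, with 149 higher and 113 lower, and the mean of all probe sets of a gene gave 183, with 96 higher and 87 lower. Without the 2 arrays that stood apart, an alternative chosen after seeing the data, the count was 199, with 130 higher. With 1 of the 13 arrays left out it ran from 66 to 130, the higher genes from 39 to 77 and the lower from 27 to 53. Treating the replicate number as a block on arrays 1 to 3 gave 2595 higher and 2588 lower genes over time and 65 and 37 in the difference from vehicle. Deviations of same-numbered arrays at 6 h and 48 h had correlations of -0.136, 0.114 and 0.068 under 1,25D. In vehicle the correlations were -0.243, -0.339 and 0.482. So few values cannot settle whether the numbers pair the arrays. The cause of these shifts was not tested, beyond the smaller number of arrays in the fits that leave some out.

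Of 191 named genes called over time, 183 kept the call in the alternatives other than the fold threshold of 1.5, and of 54 with a called difference from vehicle 27 kept it in all that were run. The change of Adgre1, which was not called, ran from -0.084 to 0.119 with 1 array left out. Quantile normalization moved the median change over all genes to 0.018 and median centring to -0.002. Of the counts of the 45 gene lists, 91 moved by over 1.5 times and 989 did not over the alternatives other than leaving out 1 array, and 97 moved and 533 did not with 1 array left out. The number of arrays, 3 or 4 a group, limits how small a change can be called.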

Other observations

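Genes of the circadian clock were among the changes over time and stand in none of the lists above. They were chosen after their values were seen. Dbp, a transcription factor gene driven directly by the clock, had log2 signals of 5.30, 5.05 and 5.28 at 6 h and 9.18, 9.57, 9.29 and 9.28 at 48 h under 1,25D, with no overlap, and rose by 4.12. In vehicle it rose by 2.92. Of 18 clock genes measured, 5 rose and 4 fell under 1,25D, with a median change of 0.351, against 10.7% of all genes rising and 12.2% falling. Bhlhe40 rose by 1.89, Per3 by 1.38, Tef by 0.89 and Nfil3 by 0.45. The falls were in Hlf (-1.36), Clock (-0.89), Cry1 (-0.87) and Arntl (-0.60), the last of which encodes the partner of Clock. Without 1,25D 48 h replicate 4, 7 rose and 4 fell.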
